A study of Homo sapiens with 4 samples.

Results

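The genes described here are 37 known androgen-induced genes of the prostate that lie outside the kallikrein family, of 60880 genes in the count table. They were chosen by symbol from a written list, with earlier results of these data known. All 37 symbols matched 1 Ensembl gene each. The libraries compared were LNCaP95, a subline of the LNCaP prostate cancer cell line that grows without androgen (genotype WT, replicates 1 and 2), and LN95(KO), a derivative of LNCaP95 in which UGT2B17 was targeted with CRISPR (genotype UGT2B17 KO, replicates 3 and 4). Both groups were cultured in charcoal-stripped serum, from which steroid hormones are largely removed, and received no treatment before RNA was extracted. In the labels every library has LN95 as its cell line, whereas the series' design line names LNCaP for the knockout. The sources do not state how many knockout clones were sequenced or whether replicates were separate cultures, so p-values measure only the spread between these libraries.

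The androgen receptor is a nuclear receptor that is held by chaperones of the HSP90 system until it binds testosterone or dihydrotestosterone, and then binds DNA at androgen response elements, often far from the genes that respond. In prostate epithelium its targets serve secretion, polyamine and lipid metabolism, ion transport and differentiation, and several of them also answer to the glucocorticoid receptor, which reads a nearly identical DNA element. UGT2B17 attaches glucuronic acid to androgens, which inactivates them.

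Gene reads ranged from 17330338 to 18813193 per library, and levels are given as CPM, counts scaled to a common library size with TMM factors. Bulk RNA does not tell fewer cells of a type from less RNA per cell. The knockout check came first: UGT2B17 was read 2788 and 2748 times in LNCaP95 and 21 and 20 times in LN95(KO). Of the luminal prostate markers KLK3 was called higher and FOLH1 lower, and KRT8, KRT18 and EPCAM were abundant in each library. Summed levels of the other cell types' markers were at most 30.7 CPM for 5 basal genes, 38.1 for 6 fibroblast genes, 3.18 for the 4 endothelial genes matched and 0.339 for 6 immune genes. CHGA, SCG3, DCN, CDH5, TEK, CD3E and CD68 had 0 reads in every library. Fibroblast and endothelial sums were higher in both LN95(KO) libraries (38.1 and 35.0 against 32.3 and 31.2 CPM, and 2.77 and 3.18 against 0.433 and 0.491 CPM). COL1A1 and VWF held most of those reads, and the fibroblast gene LUM went the other way, from 24 and 19 counts to 0 in each library (called lower). The basal sum, mostly DST, was also higher, from 21.7 and 24.2 CPM to at most 30.7 CPM. KRT14 was the only basal gene called, higher, with 3 counts over both LNCaP95 libraries and 37 over both LN95(KO) libraries. The immune sum was 0.339 and 0.219 against 0.108 and 0.109 CPM. Their part in the results below was not tested.

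Of the 37 androgen receptor target genes, 26 were called higher in LN95(KO), 0 were called lower, 10 were tested without being called and 1, STEAP4, had too few reads to test. Calls needed an adjusted p under 0.05 together with a change of more than 2-fold (edgeR quasi-likelihood test, Benjamini-Hochberg adjustment over all 15626 genes tested). Of all genes tested, 8.86% were called higher and 9.13% lower. Of the 10 members not called, 7 were higher and ANKH was lower at an adjusted p under 0.05 without reaching 2-fold, and EAF2 and TSC22D3 did not pass. Changes of that kind were common, with 20.9% of all genes tested higher at that level without passing 2-fold and 41.8% in either direction. At an unadjusted p under 0.05 and any fold, ANKH and TSC22D3 were lower, and DESeq2 also called 26 members higher and 0 lower. In 34 of the 37 genes both LN95(KO) libraries lay above both LNCaP95 libraries, which was the case for 39.8% of all genes tested. The median log2 fold change of the 36 tested members was 1.38, beside -0.01 over all genes tested. ZBTB16, BMPR1B, CHRNA2 and PGC had fewer than 10 counts in both LNCaP95 libraries and entered the test only through their LN95(KO) reads. Among the other 32 tested members the median was 1.33 and 22 were called higher (68.8%), where the same condition on LNCaP95 reads gave 6.69% of 15177 genes. The members were listed with earlier results of these data known, so their share of calls is not independent of the data.

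**Figure D1:**
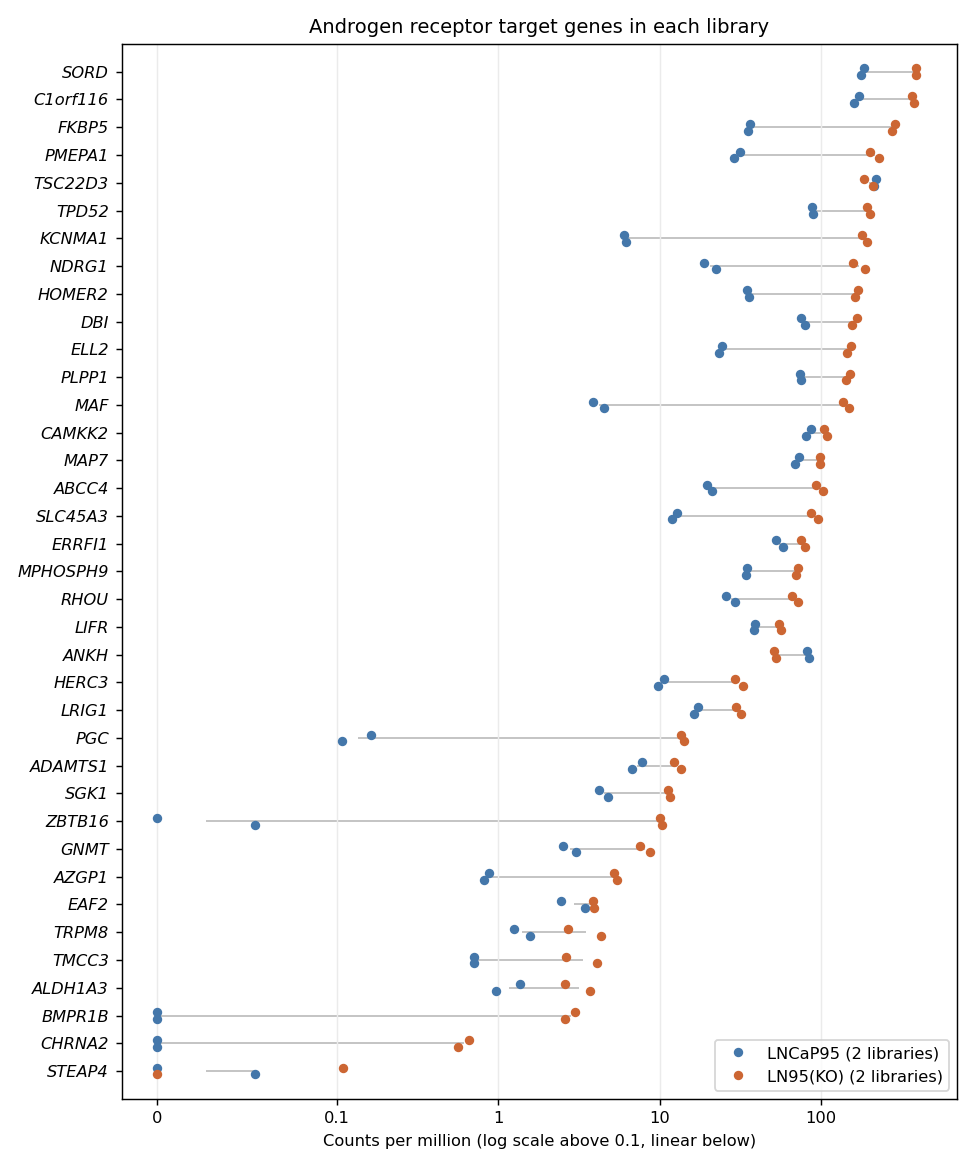
Level in CPM of the 37 target genes in each library, ordered by the mean in LN95(KO), with 1 point per library and a grey line between group means (log axis above 0.1, linear below). SORD reached 386.9 CPM and STEAP4 stayed under 0.1 CPM on average, and only ANKH and TSC22D3 had both LN95(KO) points below both LNCaP95 points.

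The size of the rise differed widely between members. Among the 26 called genes, 6 rose by more than 16-fold by the fitted values (BMPR1B, ZBTB16, PGC, CHRNA2, MAF and KCNMA1), 9 by 4- to 16-fold and 11 by 2- to 4-fold. The fitted values of CHRNA2 and BMPR1B, which had 0 reads in LNCaP95, depend on the prior count, and the bounds given below are at least 7.5-fold and 34.4-fold. The median of the members is the same with both at these bounds. Over all genes tested the same classes held 0.742%, 2.84% and 5.28%. Of the 6 members above 16-fold, all but MAF and KCNMA1 entered the test only through their LN95(KO) reads. The bound of CHRNA2 alone does not place it above 16-fold. The summed level of the 37 genes was 1427.1 and 1445.9 CPM in LNCaP95 and 3695.9 and 3568.3 CPM in LN95(KO). FKBP5, SORD, C1orf116, PMEPA1 and KCNMA1 together made up 46.4% of the net increase of 2195.7 CPM.

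Transcription and elongation factors ranged widely, with 3 of 5 called higher. ZBTB16, a zinc finger repressor also known as PLZF, had 1 and 0 counts in LNCaP95 but 183 in each LN95(KO) library. The ratio of scaled counts was 374.4, with a 95% exact binomial interval of 66.8 to 14827.3 that covers counting error only (edgeR adjusted p 6.43e-12). MAF, a leucine zipper transcription factor, was covered by 83 and 71 reads in LNCaP95 and by 2655 and 2480 in LN95(KO). It rose from 4.19 ± 0.439 to 143.0 ± 9.98 CPM (mean ± SD, n = 2 per group), which gave a log2 fold change of 5.09 with a standard error (SE) of 0.09 (edgeR adjusted p 2.09e-17). ELL2, a subunit of the super elongation complex that speeds RNA polymerase II, had 432 and 444 counts against 2560 and 2789, which gave a log2 fold change of 2.64 (SE 0.06). Its binding partner EAF2 did not pass the test. EAF2 was covered by 64 and 45 reads in LNCaP95 and by 70 and 71 in LN95(KO), which gave a log2 fold change of 0.40 (SE 0.21, edgeR adjusted p 0.105) that lay between 0.18 and 0.67 when each library was left out, with the highest value, at an edgeR adjusted p of 0.0365, without LNCaP95 replicate 1. The other gene that did not pass, TSC22D3, encodes the leucine zipper protein GILZ and is also a glucocorticoid target. It was abundant in all libraries, with 3938 and 4001 counts against 3709 and 3392, and its log2 fold change was -0.13 (SE 0.06, edgeR adjusted p 0.0605). Without LN95(KO) replicate 3 it was -0.21, with an edgeR adjusted p of 0.00341.

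Among chaperones, kinases and signalling regulators all 9 members had positive log2 fold changes and 6 were called. FKBP5, a co-chaperone of HSP90 that acts on steroid receptors, lies on the minus strand of chromosome 6 (35541362 to 35696360, GRCh37). It was covered by 649 and 666 reads in LNCaP95 and by 4880 and 5256 in LN95(KO). Both LN95(KO) values were several times those of LNCaP95, and the level rose from 35.8 ± 0.848 to 281.9 ± 8.7 CPM, which gave a log2 fold change of 2.98 (SE 0.06, edgeR adjusted p 3.11e-17). PMEPA1, a membrane protein that dampens TGF-beta signalling, had 536 and 579 counts against 4047 and 3676, which gave a log2 fold change of 2.83 (SE 0.07). NDRG1, a growth-restraining gene that also answers to hypoxia, had 412 and 345 counts against 3316 and 2874, which gave a log2 fold change of 3.07 (SE 0.10). LN95(KO) replicate 3 was the higher of its group for PMEPA1 and NDRG1, by less than the distance between the groups.

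Smaller rises in the signalling group came from HERC3, SGK1 and RHOU. HERC3, a HECT-type ubiquitin ligase, was covered by 181 and 195 reads in LNCaP95 and by 581 and 533 in LN95(KO) (log2 fold change 1.60). SGK1, a serum- and glucocorticoid-induced kinase, had 89 and 77 counts against 205 and 205, and RHOU, an atypical small GTPase, 539 and 472 against 1280 and 1214. Both had a log2 fold change of 1.34. CAMKK2, the calcium-dependent kinase upstream of AMPK, was higher by much less, with 1496 and 1586 counts against 1928 and 1909 (0.35, SE 0.06, edgeR adjusted p 4.27e-05). ERRFI1 and LRIG1 restrain EGF receptor signalling, and had 1067 and 960 counts against 1406 and 1380, and 303 and 319 against 566 and 541. They had log2 fold changes of 0.49 and 0.86 with adjusted p of 4.13e-06 and 1.78e-07 (edgeR), also short of 2-fold. Exons of SLC25A26 on the other strand cover 37.9% of the exon bases of LRIG1, and counting did not use strand.

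**Figure D2:**
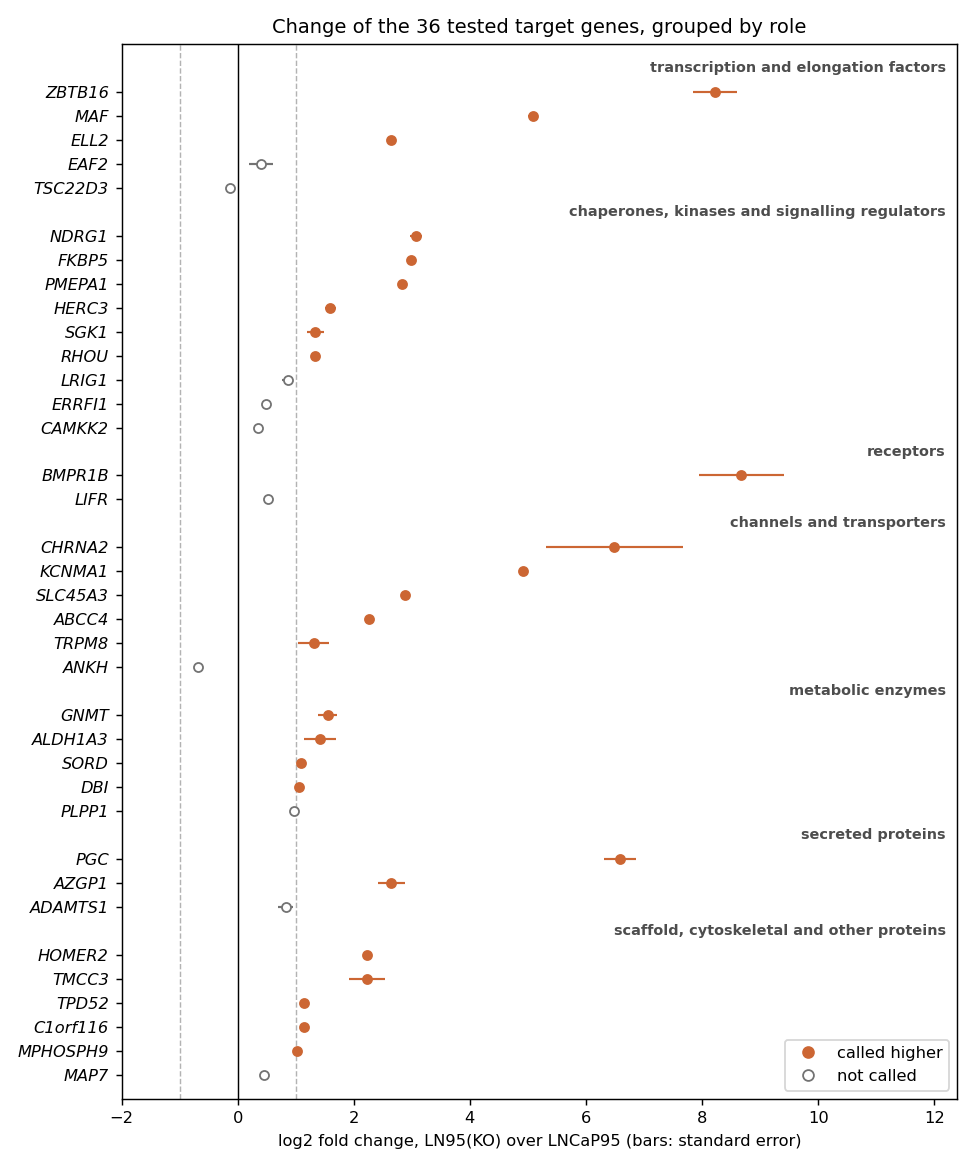
Log2 fold change of the 36 tested target genes, LN95(KO) over LNCaP95, with standard error bars, grouped by role; filled points were called higher and dashed lines mark a 2-fold change. The 10 open points lie between -0.69 (ANKH) and 0.97 (PLPP1).

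The RefSeq start regions of FKBP5 and PMEPA1 are shown because they were the only members' promoters with a copy of AGAACA, the 6-base unit that occurs as a pair in the androgen response element. Each runs from 250 bases before to 50 bases after the gene start, on GRCh38.p14, with the unit in capitals.
FKBP5 promoter, chr6:35728534-35728833, minus strand: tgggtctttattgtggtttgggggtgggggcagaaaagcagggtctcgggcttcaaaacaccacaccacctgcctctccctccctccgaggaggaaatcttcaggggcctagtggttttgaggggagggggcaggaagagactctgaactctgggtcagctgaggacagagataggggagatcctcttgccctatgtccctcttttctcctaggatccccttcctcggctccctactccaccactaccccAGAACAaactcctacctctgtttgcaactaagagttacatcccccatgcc
PMEPA1 promoter, chr20:57711423-57711722, minus strand: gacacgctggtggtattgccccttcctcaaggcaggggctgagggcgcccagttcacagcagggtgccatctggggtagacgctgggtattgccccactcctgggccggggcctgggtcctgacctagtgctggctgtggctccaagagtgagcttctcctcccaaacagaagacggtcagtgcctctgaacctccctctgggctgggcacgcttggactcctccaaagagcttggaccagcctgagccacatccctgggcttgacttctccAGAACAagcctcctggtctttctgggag

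These 2 genes were 6.90% of the 29 members with a RefSeq promoter in the table, and 14.9% of all 27305 promoters held the unit on either strand. A match describes letters and not a bound site. The complete element (AGAACA, any 3 bases, TGTTCT, which reads alike on both strands) occurred in 0 member promoters and in 0 of 37 windows of 10000 bases centred on the gene start, where 0.135% of all genes tested had it. In windows of 100000 bases, a width chosen after the narrower window gave no match, it occurred in 2 members (5.41%) and in 1.71% of all genes tested. Those members were LRIG1 and ANKH, of which neither was called higher. A relaxed form with any base at the third position from each outer end occurred in 7 members (18.9%) against 13.3% of all genes, with 3 of 26 called members (11.5%) and 4 of 11 others (36.4%).

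The complete elements of LRIG1 and ANKH and the relaxed ones nearest to the starts of TSC22D3 and C1orf116 are shown on GRCh37, with the 6-base units in capitals. They allow members not called higher to be set beside C1orf116, which was.
LRIG1, chr3:66561440-66561469, minus strand: agcttccAGAACAccaTGTTCTactggggg
ANKH, chr5:14842968-14842997, minus strand: aatgttcAGAACAttgTGTTCTcagtgcca
TSC22D3, chrX:107011066-107011095, minus strand: atggcccAGAACAtacTGTGCTgtcccaaa
C1orf116, chr1:207183513-207183542, minus strand: catttaaAGAACAgggTGTGCTgtgtattc

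The LRIG1 element lies 9768 bases before the annotated gene start. Those of ANKH and TSC22D3 lie in introns, 28904 and 9491 bases after the start, and that of C1orf116 lies beyond the end of the gene, 22573 bases from its start.

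Channels and transporters included some of the largest rises. KCNMA1, the pore-forming subunit of the large-conductance calcium-activated potassium channel, was covered by 115 and 110 reads in LNCaP95 and by 3398 and 3280 in LN95(KO). It rose from 6.12 ± 0.159 to 185.9 ± 8.66 CPM, which gave a log2 fold change of 4.92 (SE 0.08), and at 4.18e-18 it had the smallest adjusted p of the 37 genes (edgeR). KCNMA1 spans positions 78629359 to 79398127 of chromosome 10, minus strand. SLC45A3, a membrane transporter known as prostein and a marker of prostate origin, had 219 and 235 counts against 1706 and 1585 (log2 fold change 2.89, SE 0.08). ABCC4, an efflux pump for cyclic nucleotides and organic anions, had 387 and 360 counts against 1825 and 1698 (2.27, SE 0.07).

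TRPM8 and CHRNA2 remained scarce. TRPM8, the cold- and menthol-sensing cation channel, was covered by 29 and 23 reads in LNCaP95 and by 77 and 49 in LN95(KO), which gave a log2 fold change of 1.31 (SE 0.27, edgeR adjusted p 0.000518). Without LN95(KO) replicate 3 it was 0.93 and no longer passed the 2-fold criterion. CHRNA2, a nicotinic acetylcholine receptor subunit, was without reads in LNCaP95 (0 in each library) and had 10 and 12 in LN95(KO), which is at least 7.5-fold higher against a floor of 3 counts over the group. ANKH, which exports ATP and pyrophosphate, went the other way, with 1561 and 1507 counts in LNCaP95 but 927 and 928 in LN95(KO). It fell by 0.69 on the log2 scale (SE 0.06, edgeR adjusted p 2.07e-08), a change smaller than 2-fold that lay between -0.71 and -0.67 when each library was left out.

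Both receptors were higher, and 1 was called. BMPR1B, a type I receptor for bone morphogenetic proteins, was without reads in LNCaP95 (0 in each library) and had 46 and 55 in LN95(KO), which is at least 34.4-fold higher by the same floor (edgeR adjusted p 3.56e-08). LIFR, the receptor for leukemia inhibitory factor, had 714 and 717 counts against 1007 and 1000, which gave a log2 fold change of 0.52 (SE 0.07, edgeR adjusted p 2.56e-06).

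Secreted proteins were low in LNCaP95. PGC, or progastricsin, an aspartic protease precursor found in stomach and seminal fluid, was covered by 2 and 3 reads in LNCaP95 and by 250 and 246 in LN95(KO), which gave a log2 fold change of 6.59 (SE 0.27, edgeR adjusted p 9.99e-13). AZGP1, zinc-alpha-2-glycoprotein of seminal plasma, had 15 and 16 counts against 96 and 95 (2.65, SE 0.23). ADAMTS1, an extracellular matrix protease, had 125 and 142 against 241 and 223, which gave a log2 fold change of 0.83 (SE 0.13, edgeR adjusted p 2.72e-05) that was short of 2-fold. In each of these genes the replicates were close together and the groups did not overlap. Groups that do not overlap were common, in 12465 of all 15626 genes tested in either direction.

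Metabolic enzymes rose moderately, with 4 of 6 members called. SORD, sorbitol dehydrogenase, was covered by 3250 and 3384 reads in LNCaP95 and by 6812 and 7098 in LN95(KO), which gave a log2 fold change of 1.10 (SE 0.05, edgeR adjusted p 2.84e-12). Its pseudogene SORD2P, with which reads can be exchanged, had 243 and 264 counts against 250 and 239. DBI, the acyl-CoA binding protein, had 1469 and 1381 counts against 2771 and 3040 (1.06). GNMT, which methylates glycine, had 56 and 46 against 155 and 138 (1.55), and ALDH1A3, a retinaldehyde dehydrogenase, 18 and 25 against 66 and 47 (1.42). Exons of other genes cover 33.3% of the exon bases of ALDH1A3.

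PLPP1, a lipid phosphatase, lay at the edge of the fold criterion with a log2 fold change of 0.97 (SE 0.05), from 1379 and 1364 counts to 2520 and 2753. It passed with library totals in place of TMM factors (1.03) and without LN95(KO) replicate 3 (1.02). Other genes' exons cover 29.6% of its exon bases. STEAP4, a metalloreductase, was covered by 1 and 0 reads in LNCaP95 and by 0 and 2 in LN95(KO), so a change was not detectable at this depth.

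Scaffold, cytoskeletal and remaining proteins had 5 of 6 members called. HOMER2, a postsynaptic-type scaffold protein, had 663 and 634 counts against 2867 and 3080, which gave a log2 fold change of 2.23 (SE 0.06, edgeR adjusted p 2.51e-15). TMCC3, a transmembrane protein of the endoplasmic reticulum, had the same log2 fold change from far fewer reads, 13 and 13 against 72 and 48, with an SE of 0.31. C1orf116, also named specifically androgen-regulated gene, had 2967 and 3166 counts against 6637 and 6644 (1.15). TPD52, a vesicle trafficking protein, also rose by 1.15 on the log2 scale, from 1650 and 1619 to 3571 and 3502 counts, and MPHOSPH9, a centriole protein, by 1.03, from 635 and 637 to 1233 and 1304 counts. Other genes' exons cover 10.8% of the exon bases of TPD52. MAP7, a microtubule-binding protein, had 1281 and 1340 counts against 1742 and 1788 and was short of 2-fold (0.46, edgeR adjusted p 1.69e-06).

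Levels were compared between genes as RPKM, which is CPM divided by kilobases of exon, using all annotated exon bases of a gene. The median over the 37 genes was 2.40 RPKM in LNCaP95 and 7.58 RPKM in LN95(KO), and the number of genes above 10 RPKM was 9 and 18. The order of levels differed between the lines. In LNCaP95 the highest were TSC22D3 (43.6 RPKM), PLPP1 (38.5), DBI (31.0) and C1orf116 (30.3), and in LN95(KO) PLPP1 (75.8), C1orf116 (67.2), DBI (64.7) and TSC22D3 (39.9). PMEPA1 moved from 5.29 to 37.5 RPKM and MAF from 0.598 to 20.4 RPKM. BMPR1B, CHRNA2, ZBTB16, TRPM8, TMCC3 and ALDH1A3 were still under 1 RPKM in LN95(KO).

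**Figure D3:**
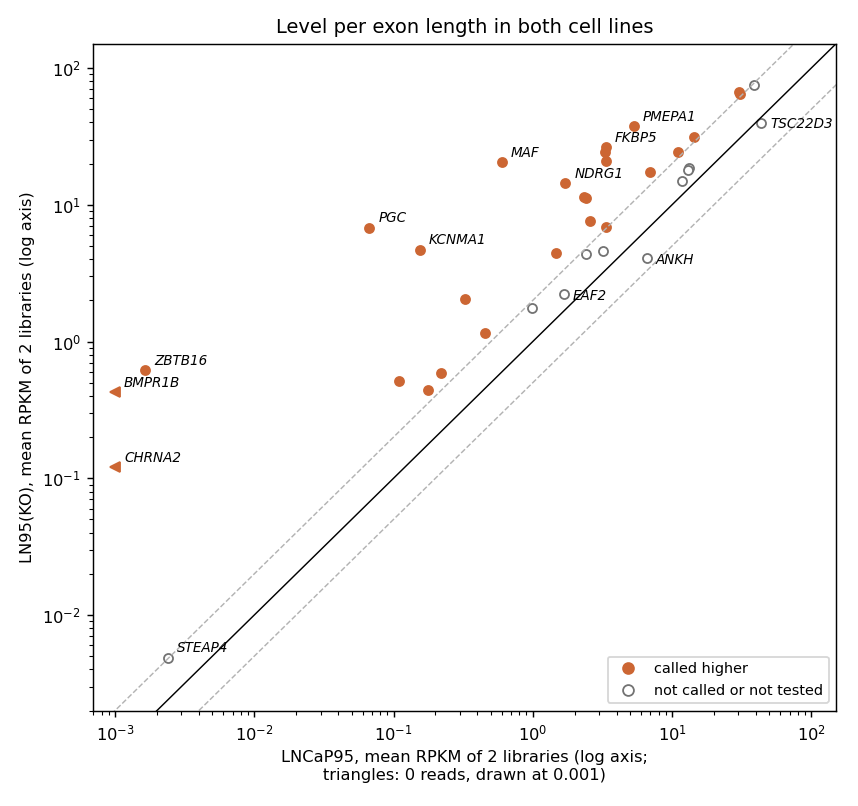
Mean RPKM of each target gene in LN95(KO) against LNCaP95 (n = 2 libraries each, both axes logarithmic, solid line equality, dashed lines 2-fold). PGC, at 0.0672 RPKM in LNCaP95 and 6.82 RPKM in LN95(KO), and MAF, at 0.598 and 20.4 RPKM, lie far above the line, whereas TSC22D3 and ANKH lie below it.

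Low and high members were compared without ZBTB16, BMPR1B, CHRNA2 and PGC, a choice made after the data were seen, since those genes were tested only because they were high in LN95(KO). Of the 10 remaining members under 10 CPM in LNCaP95, 8 were called, with a median log2 fold change of 1.48. Of the 22 members at 10 CPM or more 14 were called, with a median of 1.12. Over all genes, 11.9% of 5723 genes under 10 CPM with the same minimum of LNCaP95 reads and 3.53% of 9454 others were called higher. Across the 32 members Spearman's rank correlation between the LNCaP95 level and the log2 fold change was -0.49, and it was -0.64 with the 4 genes included. Both quantities contain the same LNCaP95 counts, and genes are not independent replicates.

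Other genes of the pathway were taken from written lists, also chosen with earlier results of these data known. Of 35 other androgen-induced genes outside the members, 17 were called higher (48.6%), 1 lower (2.86%) and 17 were not called. Their median log2 fold change was 0.78. Of all genes tested, 8.86% were called higher and 9.13% lower. STK39, a stress kinase, IQGAP2, a scaffold protein, and HPGD, which inactivates prostaglandins, had the smallest adjusted p. STK39 rose by 2.85 and IQGAP2 by 3.22 on the log2 scale, and HPGD was at least 996.3-fold higher. HPGD, with 0 reads in each LNCaP95 library, and AKAP12, with 3 and 1, entered the test only through their LN95(KO) reads. Both are among the 17 called higher. The gene called lower was STEAP2, a metalloreductase and paralog of STEAP4, with 31720 and 32083 counts in LNCaP95 but 13342 and 12848 in LN95(KO) (-1.25, SE 0.05). Of 5 kallikrein genes 3 were called higher (60.0%), KLK2 (4.91), KLK3 (3.62) and KLK15 (1.10), and KLK4 had a log2 fold change of -0.32. Without LNCaP95 replicate 1, KLK15 fell short of 2-fold (0.97).

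Of 9 androgen-repressed genes, 8 were tested, 4 were called lower and 2 higher, with a median log2 fold change of -0.74. CAMK2N1, an inhibitor of the CaM kinase II, fell by 1.96 and the chemokine receptor ACKR3 by 2.04 on the log2 scale. UGT2B15, a paralog of the targeted gene, fell by 2.33. MET, the hepatocyte growth factor receptor, was covered by 22 reads at most and was not called by DESeq2 or without LNCaP95 replicate 2 or LN95(KO) replicate 3. UGT2B28 (3.72) and BCHE (2.93) were called higher from few LNCaP95 reads, 5 and 11 for UGT2B28 and 4 and 1 for BCHE. Without LNCaP95 replicate 1 their log2 fold changes were 3.26 and 4.15, and without LNCaP95 replicate 2 they were 4.39 and 2.29. BCHE entered the test only through its LN95(KO) reads.

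Of 21 genes listed for receptor function and cofactors, PIAS1, a SUMO ligase (1.13), was called higher and NR3C1, the glucocorticoid receptor gene, lower. Each was 4.76% of the list, beside 8.86% of all genes tested called higher and 9.13% lower. Other genes' exons cover 32.7% of the exon bases of PIAS1. NR3C1 was covered by 760 and 916 reads in LNCaP95 and by 163 and 162 in LN95(KO), which gave a log2 fold change of -2.33 (SE 0.11, edgeR adjusted p 4.52e-12). Of the list 11 genes had positive and 10 negative log2 fold changes, with a median of 0.05. Another 14 of the 21 had an adjusted p under 0.05 without passing 2-fold, beside 41.8% of all genes tested.

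Glucocorticoid-induced genes outside the members were examined because TSC22D3, FKBP5, ZBTB16 and SGK1 respond to both hormones. Of 17 such genes 14 were tested, 1 was called higher, CRISPLD2 (1.44), and 0 lower, with a median log2 fold change of 0.16. The share called higher was 7.14%, beside 8.86% of all genes tested. Another 5 had an adjusted p under 0.05 without passing 2-fold, beside 41.8% of all genes tested. Hypoxia-induced genes were listed because NDRG1 and ERRFI1 belong to more than 1 pathway. Of 12 such genes 5 were called higher (41.7%, beside 8.86% of all genes tested) and 0 lower, with a median of 0.83. CA9, among those called, had 6 and 0 counts in LNCaP95 and entered the test only through its LN95(KO) reads. AK4 (1.33), PFKFB4 (1.51) and PDK1 (1.02), which act in energy metabolism, had the smallest adjusted p, and VEGFA had -0.43. PDK1 fell short of 2-fold without LNCaP95 replicate 1 (0.90) or LN95(KO) replicate 3. The part of hypoxia or of the glucocorticoid receptor in the members' changes was not tested.

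**Figure D4:**
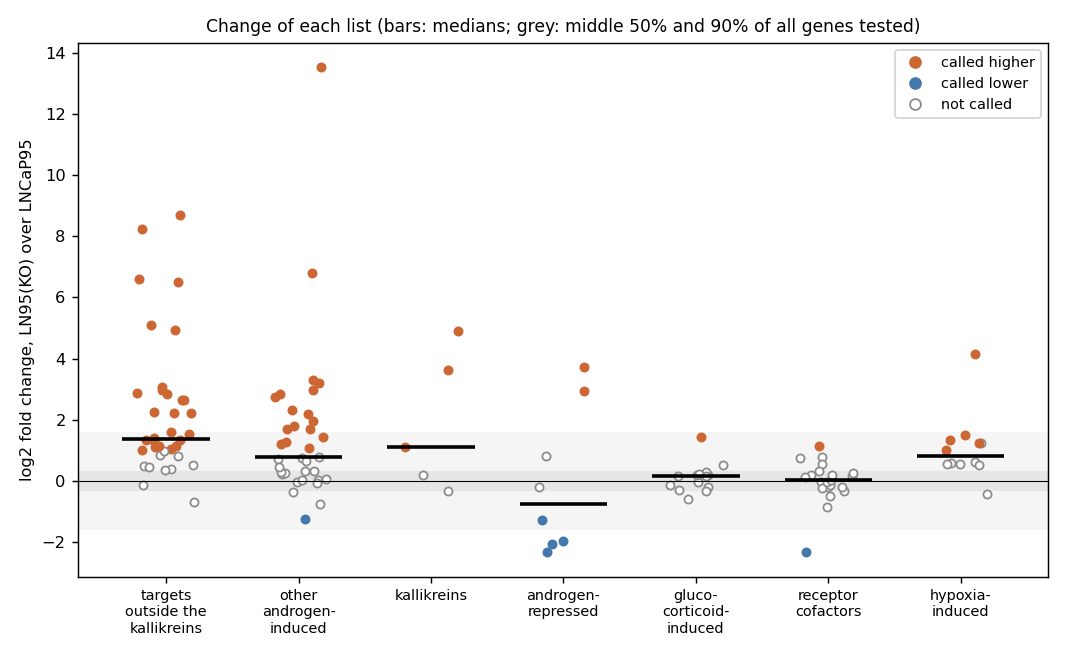
Log2 fold change of each tested gene in 7 lists, LN95(KO) over LNCaP95, with list medians as bars and the middle 50% and 90% of all genes tested in grey (-0.37 to 0.37 and -1.56 to 1.57). The median of the androgen receptor targets outside the kallikreins was 1.38, that of androgen-repressed genes -0.74 and that of glucocorticoid-induced genes 0.16.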

How the data were processed

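RNA-Seq libraries of 2 LNCaP95 and 2 LN95(KO) samples were grouped by their labels. The deposited values are raw counts per gene. The authors aligned poly(A)-selected reads with HISAT2 (version 2.1.0) on hg19, and htseq counted reads per gene of GENCODE release 29, without strand per the file names. Reads that are ambiguous or align more than once are left out by htseq, and paralogs and overlapping genes are uncertain to that extent. The table of the whole series and the single files differed in 0 cells. The 5 summary lines, 23.8% to 27.5% of all entries per library, were left out of library sizes and tests.

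Symbols were assigned by Ensembl identifier (59859 of 60880 matched). Coordinates came from GENCODE release 44 on GRCh37, the build of the counts. Genes were filtered with filterByExpr (minimum count 10, minimum total 15), scaled by TMM factors and tested with edgeR's quasi-likelihood test (version 4.0.16, R 4.3.3, robust estimation, no covariate), after the same code had been tested on simulated counts. The SE is the absolute log2 fold change over the square root of F. With 2 libraries against 2 no permutation test can go below 0.333, and none was used. Replicates differed by more than sampling noise (chi-square per degree of freedom 2.44 and 3.58). A count of 0 allows up to 3 counts, or 0.159 to 0.173 CPM. Intervals cover counting error only. Alternatives were DESeq2 (version 1.42.0, the study's tool), RLE factors, library totals, no filter, other fold criteria and leaving out each library. All members are named, and of other lists up to 3 called genes in each direction by adjusted p. Further names (KLK4, VEGFA, LUM, SORD2P, MET, AKAP12 and CA9) were chosen after their values were seen. The members and lists were chosen with earlier results of these data known. Promoter sequences are from RefSeq on GRCh38.p14, with 29 of 37 members matched. Some genes of the lists are not reported here.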

Additional observations from a re-analysis of the deposited data

Results flagged for a closer look

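Reads left without an alignment, whose share lies in the summary lines and enters no comparison above, were more frequent in LN95(KO) (8.05% and 7.71%) than in LNCaP95 (3.85% and 3.96%). Their part in the members' values was not tested.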

How the results depend on the processing

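No paired analysis was possible because LNCaP95 carries replicates 1 and 2 and LN95(KO) replicates 3 and 4. UGT2B17 kept its direction and call in every alternative run (-7.09 to -6.98). The number of members called higher was 26 with DESeq2, RLE factors and no filter, 27 with library totals, and 25 to 26 without 1 library. It was 33 at an adjusted p under 0.05 and any fold, and 21 under a glmTreat test against a 2-fold change, which TRPM8, ALDH1A3, SORD, DBI and MPHOSPH9 did not pass. Members called lower were 0 in each of these except 1 (ANKH) at any fold. Of all genes, 2811 were called, 2312 by DESeq2, 3362 without a filter, 9349 at any fold and 1687 under glmTreat, since those criteria are looser and stricter, and 2539 to 2777 without 1 library. The median log2 fold change of the members was 1.37 to 1.43 under the other tools, scalings and filter and 1.28 to 1.62 without 1 library, the highest without LN95(KO) replicate 4. A library left alone in its group is assumed to vary like the others. Of the 26 called members, 24 were called in all 8 alternatives that kept the fold criterion. The exceptions were TRPM8 and CHRNA2, which was too scarce to test without either LN95(KO) library. Leaving out LNCaP95 replicate 1 or 2 moved the fitted log2 fold change of ZBTB16 from 8.22 to between 7.38 and 10.53, as its only LNCaP95 read came from replicate 1. At this depth STEAP4 could not be assessed.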
